A study of Mus musculus with 5 samples.

Results

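The genes described here are 33 genes of the NRF2 pathway and of antioxidant defence, picked by name with earlier results of these data known. They are the transcription factor gene Nfe2l2 and its inhibitor Keap1, 17 enzyme and cofactor genes known to be inducible by NRF2, and 14 antioxidant genes that are largely constitutive. A gene was measured if a probe of the array carried its symbol and no other, and the probe with the highest mean over the 5 arrays stood for it. This gave 29 of the 33 genes, among 22180 genes measured in all. G6pdx, Prdx1, Prdx5 and Prdx6 had no such probe and were not analysed here. All 29 measured genes passed the filter on low values, a mean log2 value of at least 3.42, which 15294 genes passed.

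The hearts came from wild-type mice of the C57Bl6J strain at zeitgeber time 12, that is 12 h after lights on. In the antagonist group (n = 3 hearts) mice received an antagonist of REV-ERB alpha, the clock repressor encoded by Nr1d1, into the peritoneum at 10 µM, 4 h and 1 h before perfusion. The sham group (n = 2 hearts) had no antagonist. Every heart of both groups was perfused in isolation on a Langendorff apparatus, with 20 min of stabilisation, 20 min without flow and 20 min of reperfusion, so all values describe reperfused tissue. The labels name neither the compound nor a vehicle, and give no age. Each heart gave 1 array of log2 expression values, and with 5 arrays in all every comparison is imprecise. Cardiac muscle markers were high on every array, with Myh6 between 12.33 and 12.40 and Tnnt2 between 12.61 and 12.65. The arrays are labelled as biological replicates, so p-values refer to the spread between these hearts. In 73.9% of tested genes some arrays have exactly equal values, which need not measure that spread. Sham replicate 1 stood apart from the rest: it alone held the lowest value of 25.9% and the highest of 22.3% of tested genes, compared with at most 15.9% and 18.5% for any other array. Antagonist replicate 2 carried high levels of fat, atrial and mesothelial genes, given beside Gpx3. Many of the results that rest on either array are given with and without it.

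NRF2, the product of Nfe2l2, is held in the cytosol and sent to degradation by KEAP1. Oxidants and electrophiles modify cysteines of KEAP1, which lets NRF2 accumulate, pair with small MAF proteins and bind antioxidant response elements (AREs) upstream of its target genes. The targets supply glutathione, thioredoxin and NADPH and break down heme and quinones. The constitutive enzymes, mainly superoxide dismutases, catalase, peroxiredoxins and glutathione peroxidases, remove the superoxide and peroxide that are formed in a burst when oxygen returns to an ischemic heart.

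The thioredoxin reductase genes Txnrd1 and Txnrd2 were the clearest of the members with higher values in antagonist hearts, and the extracellular superoxide dismutase gene Sod3 was the clearest with lower values. None of them passed the test across all genes. With limma, 0 of the 29 members reached an adjusted p under 0.05, like 0.0% of the 15294 genes tested, and the smallest adjusted p among the members was 0.637. An unadjusted p under 0.05 was found for 3 members, Txnrd1 and Txnrd2 with higher values and Sod3 with lower ones, where 4.6% of all tested genes lay under that limit. In 8 members the groups did not overlap, 6 higher (Txnrd1, Txnrd2, Txn2, Prdx3, Gsta3 and Nqo1) and 2 lower (Sod3 and Gsr). For all tested genes 6.19% did not overlap and were higher, and 6.33% did not overlap and were lower. Many values of the table are exactly equal between arrays (73.9% of tested genes have such a tie, and 12 members), and a tie between groups prevents a gap. Of the 17 members without ties, 5 were higher and 1 lower without overlap, beside 15.1% and 15.9% of the genes without ties. In extracts of whole hearts, fewer cells of a type and less RNA per cell cannot be told apart.

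For both regulators of the pathway the groups overlapped. Nfe2l2 (Entrez Gene 18024) had log2 values of 9.13, 9.26 and 9.10 in antagonist hearts, against 9.01 and 9.11 in sham hearts. Sham replicate 1 was the lowest and antagonist replicate 2 the highest, and the log2 difference, antagonist minus sham, was 0.10 ± 0.07 (SE), or 0.05 without sham replicate 1. Keap1, the substrate adaptor that binds NRF2, had values of 6.30, 6.15 and 6.17 in antagonist hearts, against 6.15 and 6.47 in sham hearts. The 2 sham hearts lay farther apart than the 3 antagonist hearts, with the highest value in sham replicate 2, and the range of Keap1 over the 5 hearts was wider than that of 65.3% of tested genes. The difference was -0.10 ± 0.12 and a second probe gave 0.03. Without sham replicate 2 the Keap1 difference was 0.06.

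Of 15 measured NRF2-inducible genes, 11 had higher mean values in antagonist hearts and 4 lower, with differences from -0.13 to 0.36 and a median of 0.16. Of 12 measured constitutive genes, 9 were higher and 3 lower, from -0.28 to 0.22 with a median of 0.08. Over all tested genes 47.7% had a positive and 46.3% a negative difference, and the median was 0. The difference between both groups of members was not tested. Both medians depended most on 1 heart. Without sham replicate 1 they were 0.039 for the inducible and 0.023 for the constitutive genes. Then 8 of 15 and 8 of 12 genes were higher. Without sham replicate 2 the medians were 0.26 and 0.12. Without antagonist replicate 2 they were 0.14 and 0.046, with 10 of 15 and 7 of 12 genes higher.

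**Figure D1:**
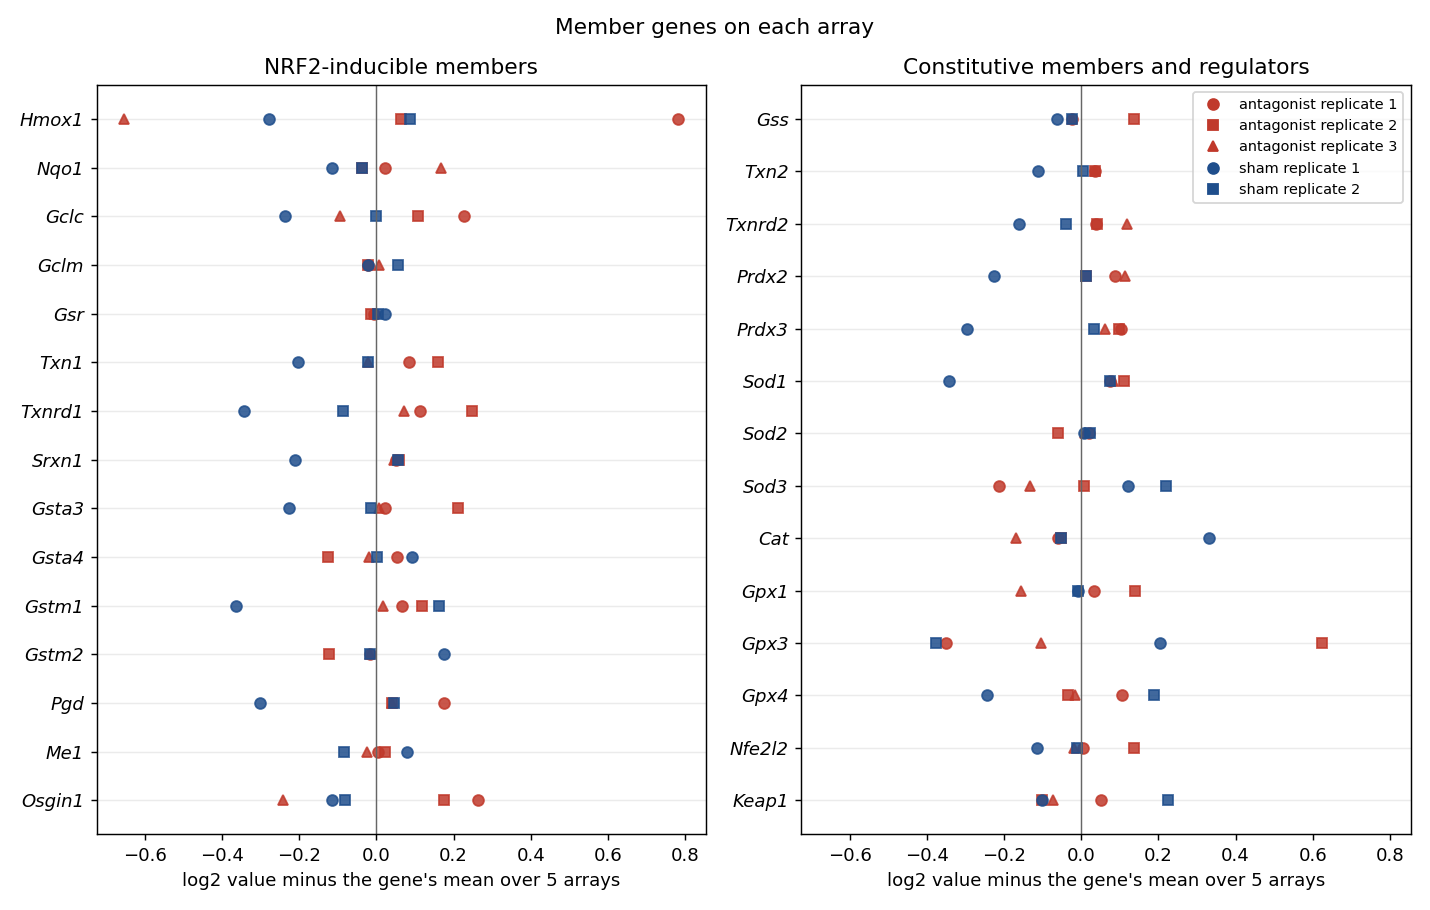
Log2 value of each measured member on each array, minus that gene's mean over the 5 arrays (horizontal axis), for 15 NRF2-inducible genes (left) and for 12 constitutive genes and 2 regulators (right). Red marks are antagonist and blue marks sham hearts, and equal values overlie each other. Sham replicate 1 (blue circles) is the lowest mark alone for 16 of the 29 genes, while Hmox1 and Gpx3 spread the most.

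Sham replicate 1 stood below the other hearts for many members. It alone held the lowest value for 16 of the 29 members, 8 of them inducible, 7 constitutive, and Nfe2l2. Over all tested genes it alone was lowest for 25.9%. Among genes without ties the count was 10 of 17 members, beside 33.1% of all such genes. Its median deviation from the gene's mean over the 5 arrays was -0.20 for the inducible and -0.09 for the constitutive genes, and 0 for all tested genes. On sham replicate 2 these medians were -0.0013 for the inducible and 0.01 for the constitutive genes. On the antagonist arrays the inducible genes had median deviations of 0.05, 0.06 and -0.01 in replicates 1 to 3, and the constitutive genes 0.03, 0.04 and -0.0040. On antagonist replicate 3 the medians thus lay near those of sham replicate 2. Antagonist replicate 2 alone held the highest value for 9 of the 29 members, beside 14.8% of all tested genes.

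**Figure D2:**
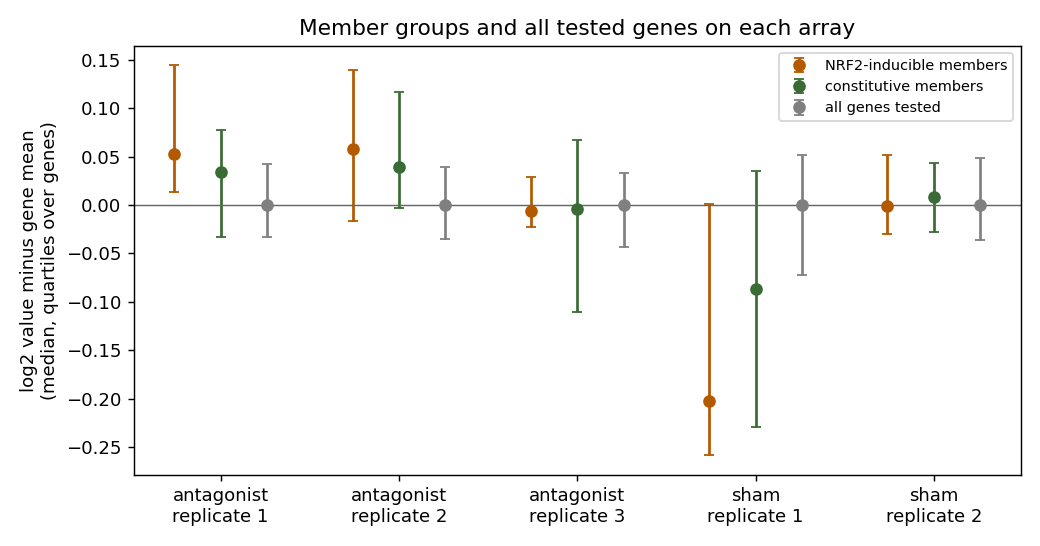
Median over genes of the log2 value minus the gene's mean over the 5 arrays (vertical axis) on each array, with bars from the lower to the upper quartile, for 15 NRF2-inducible members, 12 constitutive members and 15294 tested genes. On sham replicate 1 the medians were -0.20, -0.09 and 0, and on the other 4 arrays all medians lay between -0.01 and 0.06.

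In the thioredoxin system all 5 measured genes had higher means in antagonist hearts, and sham replicate 1 was lowest in each. Without that array the mean of Srxn1 was no longer higher. The measured genes of 4 smaller roles also had higher means, where 47.7% of all tested genes had a positive difference. The genes were Hmox1, Nqo1 and Osgin1, 3 glutathione peroxidases, 2 peroxiredoxins and 2 genes of NADPH supply. The differences of Me1 (0.0025) and Gpx1 (0.01) were near 0. Those of Hmox1, Gpx1, Gpx3, Gpx4 and Me1 turned sign with 1 array left out. The roles were not compared by a test. Thioredoxins reduce disulfides in proteins and in peroxiredoxins, and thioredoxin reductases recharge them with electrons from NADPH. Txnrd1 (Entrez Gene 50493), the cytosolic reductase and a classic NRF2 target, had values of 8.03, 8.16 and 7.99 in antagonist hearts, against 7.57 and 7.83 in sham hearts. All 3 antagonist hearts were above both sham hearts, with means of 8.06 ± 0.09 (SD, n = 3) and 7.70 ± 0.18 (SD, n = 2). The difference was 0.36 ± 0.11 (SE), or 1.28-fold, with a limma adjusted p of 0.637. An exact permutation of the group labels, with 10 possible divisions and counted two-sided, gave p = 0.1, the smallest that this design can give. Without sham replicate 1 the difference was 0.23, and it stayed positive with any other array left out (up to 0.49).

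Txnrd2 (Entrez Gene 26462), the mitochondrial reductase, is not counted among the inducible genes here, and its groups were apart as well. Its values were 6.02, 6.03 and 6.10 in antagonist hearts, against 5.82 and 5.94 in sham hearts. The difference was 0.17 ± 0.05 (SE), or 1.12-fold, between 0.11 and 0.23 with 1 array left out (limma adjusted p = 0.637, exact permutation p = 0.1). Txn2, the mitochondrial thioredoxin, measured exactly 6.50 in all 3 antagonist hearts, against 6.36 and 6.47 in sham hearts. The gap is narrow, at 0.09 ± 0.04 on average and 0.03 without sham replicate 1, and the equal values need not measure the spread between hearts. For the cytosolic thioredoxin gene Txn1 the difference was 0.19 ± 0.09, and the lowest antagonist value equalled the value of sham replicate 2 (6.97). Without sham replicate 1 it was 0.09. Srxn1, which encodes sulfiredoxin, the enzyme that repairs overoxidised peroxiredoxins, lay between 6.62 and 6.64 on 4 arrays and at 6.37 on sham replicate 1. Its difference was 0.13 ± 0.09, and -0.01 without that array.

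**Figure D3:**
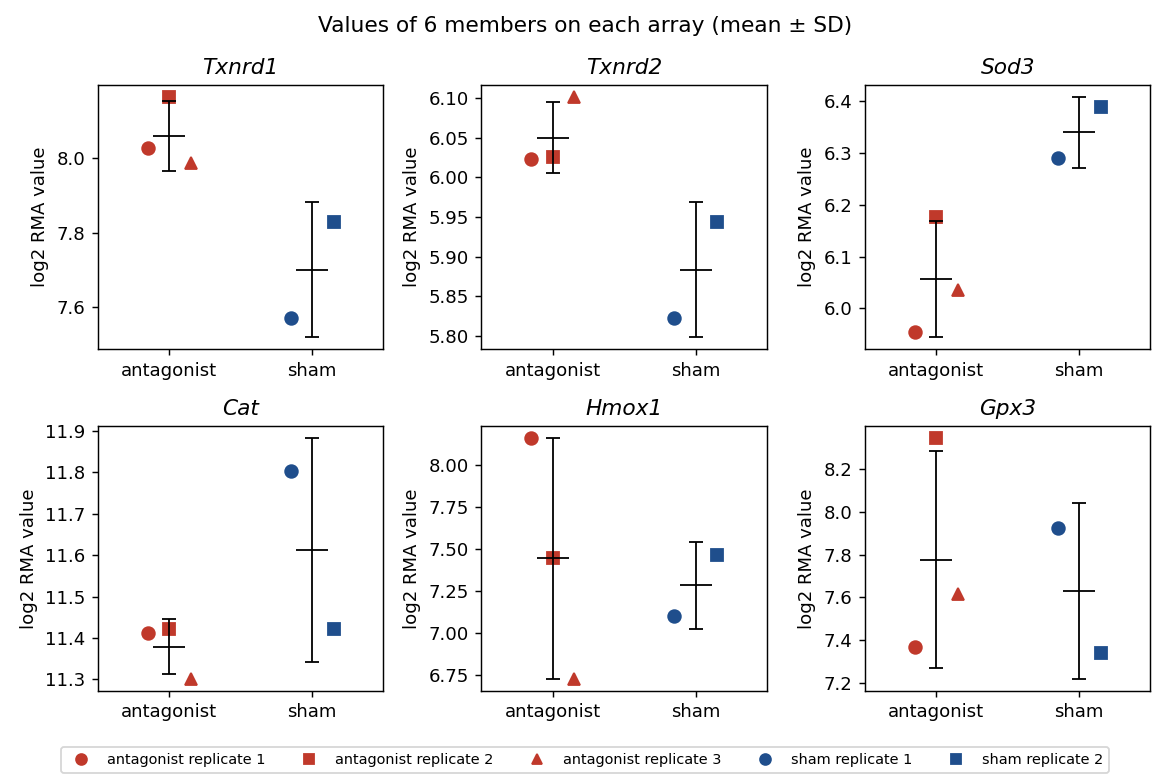
Log2 values of Txnrd1, Txnrd2, Sod3, Cat, Hmox1 and Gpx3 on each array (vertical axes, scaled per gene), antagonist hearts left and sham hearts right, with the mean and SD in black (n = 3 and n = 2). The groups are apart for Txnrd1 and Txnrd2 (higher) and Sod3 (lower) and overlap for the other 3 genes, where single hearts stand out: sham replicate 1 for Cat, antagonist replicate 1 for Hmox1 and antagonist replicate 2 for Gpx3.

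The promoters of the members are shown because NRF2 acts on its targets through the ARE. The motif searched was the ARE core TGACNNNGC, on both strands, in the 250 bases before and 50 after each start site in RefSeq (build GRCm38.p6). Windows were found for 27 of the 33 members. A match was present for 8 of 13 inducible genes (Txnrd1, Gclm, Gsta3, G6pdx, Prdx1, Me1, Pgd and Srxn1), 1 of 12 constitutive genes (Sod1) and Nfe2l2 itself. Of all 27025 genes with a window of this length 14.0% had a match in at least 1. Counted by window instead, 44.4% of the 18 windows of the inducible genes and 12.4% of all 32851 windows held one. A match describes letters and is not a shown site, and known AREs of several targets lie farther upstream than these windows reach. The sequences below are the 250 bases before the start of 4 genes that carry the match there and of Sod1, the constitutive exception, written 5′ to 3′ on the gene's strand with the match in capitals. Txnrd1 has 3 start sites, and the one shown is the window with a match.
Txnrd1 promoter, chr10:82858956-82859205, plus strand: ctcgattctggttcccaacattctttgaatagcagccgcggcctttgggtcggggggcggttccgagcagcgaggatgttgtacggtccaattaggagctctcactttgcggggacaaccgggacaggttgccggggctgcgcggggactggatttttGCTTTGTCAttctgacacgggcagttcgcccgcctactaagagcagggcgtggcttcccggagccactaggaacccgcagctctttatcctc
Gclm promoter, chr3:122245307-122245556, plus strand: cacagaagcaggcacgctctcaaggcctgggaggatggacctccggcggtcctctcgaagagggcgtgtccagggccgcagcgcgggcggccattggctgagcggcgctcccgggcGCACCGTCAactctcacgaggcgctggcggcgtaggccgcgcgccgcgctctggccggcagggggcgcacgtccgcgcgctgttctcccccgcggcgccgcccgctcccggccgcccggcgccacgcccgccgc
Gsta3 promoter, chr1:21240335-21240584, plus strand: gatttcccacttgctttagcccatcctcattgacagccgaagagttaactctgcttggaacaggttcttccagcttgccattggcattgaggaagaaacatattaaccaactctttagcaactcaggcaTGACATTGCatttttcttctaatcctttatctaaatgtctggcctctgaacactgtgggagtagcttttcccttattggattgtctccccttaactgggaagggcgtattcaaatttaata
Nfe2l2 promoter, chr2:75704664-75704913, minus strand: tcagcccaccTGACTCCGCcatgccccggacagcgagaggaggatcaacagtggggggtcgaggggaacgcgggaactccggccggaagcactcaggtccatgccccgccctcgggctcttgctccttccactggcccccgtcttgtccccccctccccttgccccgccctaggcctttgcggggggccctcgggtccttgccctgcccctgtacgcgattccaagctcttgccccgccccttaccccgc
Sod1 promoter, chr16:90220512-90220761, plus strand: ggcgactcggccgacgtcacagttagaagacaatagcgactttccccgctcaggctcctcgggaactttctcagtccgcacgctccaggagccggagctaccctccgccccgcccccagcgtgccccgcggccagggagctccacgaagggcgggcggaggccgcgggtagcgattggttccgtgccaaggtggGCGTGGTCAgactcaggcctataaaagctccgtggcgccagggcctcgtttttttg

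In the Txnrd1, Gclm and Sod1 promoters the match lies on the opposite strand, and the matched letters begin 92, 134 and 56 bases before the start. In Gsta3 and Nfe2l2 it lies on the gene's strand, 121 and 240 bases before the start. Inducible genes with and without the core had like differences, which are given without a test. The 6 with a match (Txnrd1, Gclm, Gsta3, Me1, Pgd and Srxn1) had a median difference of 0.16, from -0.03 to 0.36, and the 5 with a window but no match (Nqo1, Txn1, Gstm1, Gstm2 and Osgin1) a median of 0.16, from -0.13 to 0.19.

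The core of the element bound by REV-ERB and ROR receptors, searched as TAGGTCA on both strands of the same windows, was found for Srxn1 and Txnrd2 among the 27 members with a window, beside 2.97% of all genes with one. Both promoters are printed to show where these letters lie, which is a description and not a shown site. The bases beside the core were not part of the search, and binding was not tested. The capitals mark the match, which begins 216 bases before the start in Srxn1 and 163 in Txnrd2. A second match in Srxn1, 31 bases after the start, overlaps its ARE core, whose letters begin 29 bases after the start.
Srxn1 promoter, chr2:152105274-152105523, plus strand: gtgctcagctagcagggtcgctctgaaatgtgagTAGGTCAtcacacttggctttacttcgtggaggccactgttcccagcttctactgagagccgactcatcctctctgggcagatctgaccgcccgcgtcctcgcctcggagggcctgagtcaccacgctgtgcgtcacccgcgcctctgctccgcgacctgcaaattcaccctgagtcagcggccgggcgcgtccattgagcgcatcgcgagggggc
Txnrd2 promoter, chr16:18426167-18426416, plus strand: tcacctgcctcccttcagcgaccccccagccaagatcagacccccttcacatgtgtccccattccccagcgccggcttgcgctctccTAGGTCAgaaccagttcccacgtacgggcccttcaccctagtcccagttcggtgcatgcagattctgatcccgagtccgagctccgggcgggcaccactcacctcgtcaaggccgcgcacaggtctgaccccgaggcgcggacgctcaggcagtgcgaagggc

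Glutathione synthesis and recycling genes showed no shared direction. Gclc and Gclm encode the catalytic and the modifier subunit of glutamate-cysteine ligase, the rate-limiting enzyme of glutathione synthesis. Gclc differed by 0.20 ± 0.14 (SE), with values from 6.73 to 7.05 in antagonist hearts against 6.58 and 6.82 in sham hearts, and by 0.08 without sham replicate 1. Gclm differed by -0.03 ± 0.03 and ranged over 0.08 in all, even though both subunits are regarded as NRF2 targets. Gss, which adds glycine in the last step, differed by 0.07 ± 0.06, and by 0.02 without antagonist replicate 2. Gsr, the reductase that regenerates glutathione, had values of 6.63, 6.62 and 6.63 in antagonist hearts, against 6.65 and 6.63 in sham hearts. Its groups did not overlap by the unrounded values, at a difference of -0.02 ± 0.01. The whole range of Gsr over the 5 hearts, 0.04, was wider than that of only 10.3% of tested genes.

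The glutathione transferases, which couple glutathione to electrophiles, went both ways. Gsta3 (Entrez Gene 14859) had values of 5.46, 5.64 and 5.44 in antagonist hearts, against 5.21 and 5.42 in sham hearts. The gap between the groups was small beside the distance between the sham hearts, the difference was 0.20 ± 0.11 (SE), and it was 0.09 without sham replicate 1. Gstm1 differed by 0.17 ± 0.18 and by -0.09 without sham replicate 1, where it had its lowest value of 6.19. Gsta4 (-0.08 ± 0.07), which detoxifies lipid aldehydes, and Gstm2 (-0.13 ± 0.08) had lower means in antagonist hearts, at -0.03 and -0.04 without sham replicate 1. Transferase genes of one class are similar in sequence, and whether their probes hybridise to one another was not tested.

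Among the genes for NADPH supply, Pgd, of the pentose phosphate pathway, had values of 7.35, 7.21 and 7.21 in antagonist hearts, against 6.87 and 7.22 in sham hearts. Only sham replicate 1 was set apart, and the difference of 0.21 ± 0.13 (SE) was 0.04 without it. Me1, cytosolic malic enzyme, differed by 0.0025 ± 0.06, with the highest and the lowest of its 5 values both in sham hearts.

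The heme and quinone enzyme genes included the member with the widest spread. Nqo1, the quinone reductase whose gene is widely used as an NRF2 readout, had values of 8.23, 8.17 and 8.38 in antagonist hearts, against 8.09 and 8.17 in sham hearts. The groups were apart by less than the rounding of these values, and the difference was 0.13 ± 0.08 (SE), or 0.07 without antagonist replicate 3 and 0.09 without sham replicate 1. Hmox1, heme oxygenase 1, which releases iron and biliverdin from heme, had values of 8.16, 7.44 and 6.73 in antagonist hearts, against 7.10 and 7.47 in sham hearts. Antagonist replicate 1 was the highest and antagonist replicate 3 the lowest of all 5 hearts. This range of 1.43 was wider than that of 99.5% of tested genes, and the difference of 0.16 ± 0.50 was -0.20 without antagonist replicate 1 and 0.52 without antagonist replicate 3. Osgin1, an oxidative stress-induced growth inhibitor, had the same hearts at its ends, 6.98 in antagonist replicate 1 and 6.48 in antagonist replicate 3, against 6.60 and 6.64 in sham hearts. Its difference was 0.16 ± 0.18, from 0.07 without antagonist replicate 1 to 0.32 without antagonist replicate 3. Hmox1, Osgin1 and Gpx3 are given by heart because of their spread, a choice made after their values were seen. Macrophages also express Hmox1, and the summed linear level of 12 macrophage and monocyte markers was 1900.1, 1976 and 1669 in antagonist replicates 1 to 3, against 1768 and 1748 in sham hearts. The heart highest in Hmox1, antagonist replicate 1, was thus above both sham hearts in these markers, antagonist replicate 2 was higher still, and the heart lowest in Hmox1 was the lowest. The part of these cells in the Hmox1 values was not tested.

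Peroxiredoxins reduce peroxides with electrons from thioredoxin, and both measured genes had their lowest value in sham replicate 1. Prdx3 (Entrez Gene 11757), the mitochondrial form, had values of 10.29, 10.28 and 10.25 in antagonist hearts, against 9.89 and 10.22 in sham hearts. Antagonist hearts lay within 0.04 of one another and just above sham replicate 2, so the difference of 0.22 ± 0.11 (SE) was 0.05 without sham replicate 1. Prdx2, abundant in red cells, differed by 0.18 ± 0.09, with 1 antagonist value equal to that of sham replicate 2, and by 0.06 without sham replicate 1. Of 8 erythroid markers only Slc4a1 was measured, so red cell content was hardly covered.

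Superoxide dismutases and catalase showed 1 gene higher and 3 lower. Sod3 (Entrez Gene 20657), the secreted enzyme that binds to the matrix and to vessel walls, had values of 5.96, 6.18 and 6.04 in antagonist hearts, against 6.29 and 6.39 in sham hearts. Every antagonist heart was below both sham hearts, with means of 6.06 ± 0.11 (SD, n = 3) and 6.34 ± 0.07 (SD, n = 2). The difference was -0.28 ± 0.08 (SE), so that Sod3 was 1.22-fold higher in sham hearts, with a limma adjusted p of 0.637 and an exact two-sided permutation p of 0.2. It ranged from -0.34 to -0.23 with 1 array left out and was -0.33 without sham replicate 1. Smooth muscle cells secrete this enzyme, and of 6 smooth muscle markers 4 were lower and 2 higher in antagonist hearts. Their summed linear level ran from 796 to 951 in antagonist hearts and from 849 to 1005 in sham hearts. Of 7 endothelial markers 4 were lower and 3 higher (median difference -0.13), and their summed linear level did not overlap between the groups, with 2647 to 2689 in antagonist hearts and 2869 to 2905 in sham hearts. Neutrophil marker sums (65.4 to 66.3 against 64.1 to 65.0) and the 1 measured erythroid marker (19.6 to 20.9 against 19.5 in both sham hearts) did not overlap either. Both were higher in antagonist hearts, but only 2 of the 7 neutrophil markers passed the filter on low values. Of these 2 markers 1 was higher and 0 lower, with a median difference of 0.03. The part of smooth muscle or endothelial cells in the Sod3 values was not tested.

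Sod1, the cytosolic copper and zinc enzyme, had values of 10.29, 10.32 and 10.29 in antagonist hearts, against 9.87 and 10.29 in sham hearts. Sham replicate 2 equalled antagonist replicate 1 exactly, and the difference of 0.22 ± 0.14 (SE) was 0.01 without sham replicate 1. Cat, the peroxisomal catalase that breaks down hydrogen peroxide, had the mirror pattern. Its values were 11.41, 11.42 and 11.30 in antagonist hearts, against 11.80 and 11.42 in sham hearts, and the difference of -0.23 ± 0.14 was -0.04 without sham replicate 1. Sod2, the mitochondrial manganese enzyme, ranged over only 0.08 and differed by -0.02 ± 0.03.

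Glutathione peroxidases remove peroxides with glutathione and had differences from 0.01 to 0.14 with a median of 0.05. Gpx1, the cytosolic form, differed by 0.01 ± 0.10 (SE), and Gpx4, which protects membranes from lipid peroxides and ferroptosis, by 0.05 ± 0.15. Gpx3, the secreted plasma form, had values of 7.37, 8.34 and 7.61 in antagonist hearts, against 7.92 and 7.34 in sham hearts. Antagonist replicate 2 was the highest, the range of 1.002 was wider than that of 98.4% of tested genes, and the difference of 0.14 ± 0.39 was -0.14 without that array. Antagonist replicate 2 also held the highest value of 7 of 9 measured adipocyte markers, 6 of 7 atrial markers and 6 of 7 mesothelial markers. The fat cell gene Cidec measured 7.03 there and at most 4.75 elsewhere, and the fat cell hormone gene Adipoq, which did not pass the filter on low values, 4.83 and at most 3.05. Summed linear levels of the adipocyte markers were 2033, 2722 and 2210 in antagonist replicates 1 to 3. In sham replicates 1 and 2 they were 2165 and 2159. Atrial sums ran from 3787 to 12105 in antagonist hearts and from 3487 to 4451 in sham hearts. Mesothelial sums ran from 154 to 283 and from 163 to 165. Fat cells express Gpx3. The part of fat, atrial or mesothelial cells in the Gpx3 values was not tested.

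**Figure D4:**
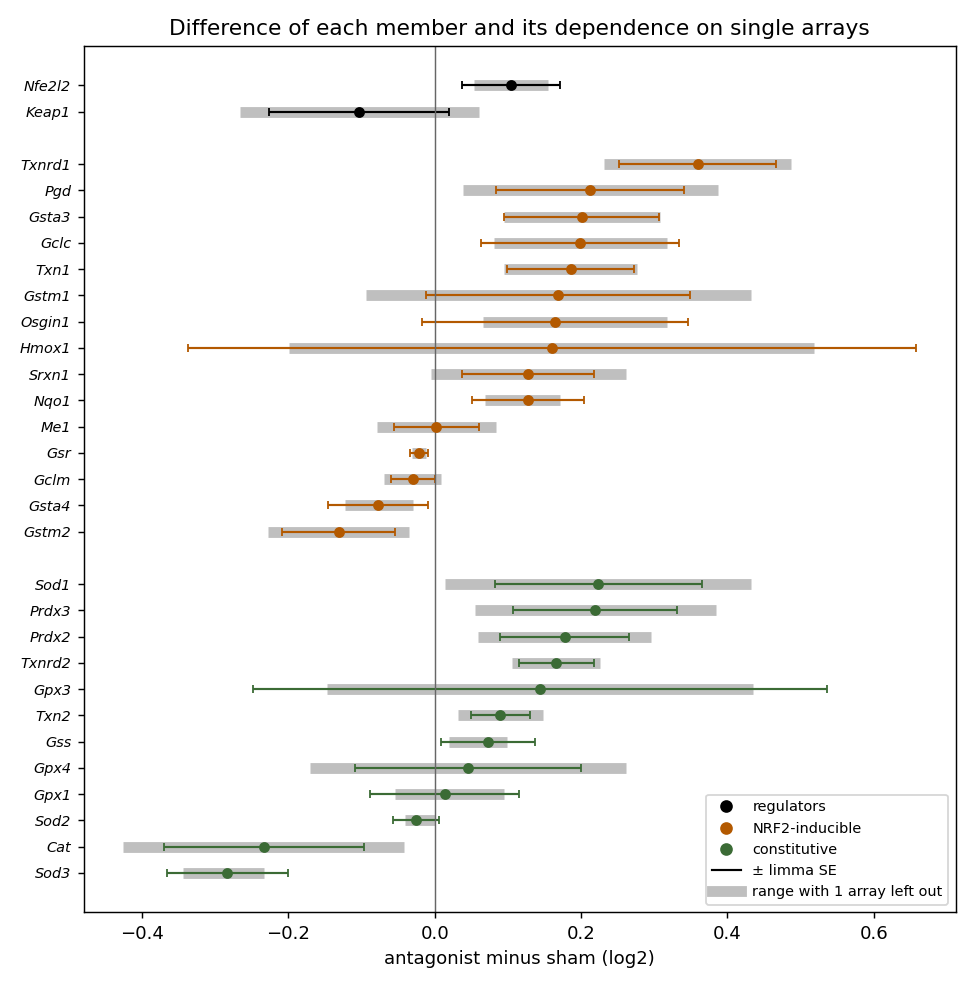
Difference antagonist minus sham on the log2 scale (horizontal axis) for the 29 measured members, with limma's SE as thin bars and the range of the difference with 1 array left out at a time as grey bars. The grey bars of 20 members stay on 1 side of 0, among them Txnrd1 (0.23 to 0.49), Txnrd2 (0.11 to 0.23) and Sod3 (-0.34 to -0.23), and those of 9 members, Hmox1 and Gpx3 among them, cross it. Some of the 20 end close to 0, such as Sod2 at -5e-05 and Sod1 at 0.01. The same count was not made over all tested genes.

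Genes of the pathway outside the 33 were read from 3 further lists. Of 11 tested partners, competitors and degradation factors of NRF2, 7 were higher and 4 lower (median difference 0.02), and 3 had groups that did not overlap, all higher, beside 6.19% of all tested genes. With limma, 0 of the 11 passed at an adjusted p under 0.05 and 1, Mafg, lay under an unadjusted p of 0.05, beside 4.6% of all tested genes. Mafg, a small MAF partner of NRF2, had values of 5.55, 5.61 and 5.63 in antagonist hearts, against 5.22 and 5.34 in sham hearts. Its difference was 0.32 ± 0.05 (SE), or 1.25-fold, between 0.25 and 0.38 with 1 array left out (limma adjusted p = 0.637, exact permutation p = 0.1). Maff, another small MAF gene, had values of 5.50, 5.76 and 5.50 in antagonist hearts, against 5.40 and 5.25 in sham hearts, a difference of 0.26 ± 0.11. The Maff difference was 0.18 without antagonist replicate 2. Sqstm1, the autophagy receptor p62 that binds KEAP1, differed by 0.39 ± 0.19 and by 0.11 without sham replicate 1, while Mafk (0.02 ± 0.02) had the same value on 4 arrays.

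Further NRF2 targets showed no common direction, with 8 of 18 tested genes higher, 8 lower and 2 at 0, a median of 0 and no gap between the groups in any of the 18, where 6.19% of all tested genes were higher and 6.33% lower without overlap. With limma 0 passed at an adjusted p under 0.05 and 0 lay under an unadjusted p of 0.05, beside 4.6% of all tested genes. Those of smallest p were Mgst1, a microsomal glutathione transferase (0.30 ± 0.16, SE), Gstm3 (0.17 ± 0.10), the ferritin heavy chain gene Fth1 (-0.10 ± 0.06) and the transporter gene Abcc1 (-0.10 ± 0.06). Without sham replicate 1 these differences were 0.09, 0.04, -0.17 and -0.02 in the same order. Of 16 tested further antioxidant enzymes and regulators 13 were higher and 3 lower, with a median of 0.11, beside 47.7% higher over all tested genes. Without sham replicate 1, 9 were higher with a median of 0.0045. In 1 of the 16 the groups were apart and higher and in 1 apart and lower, beside the same 6.19% and 6.33%. With limma 0 of the 16 passed at an adjusted p under 0.05 and 0 lay under an unadjusted p of 0.05. Over all tested genes the shares were 0.0% and 4.6%. Txnip, which binds and inhibits thioredoxin, had values of 11.54, 11.40 and 11.36 in antagonist hearts, against 11.26 in both sham hearts, a difference of 0.18 ± 0.06. Nnt, the mitochondrial transhydrogenase, differed by 0.20 ± 0.11 (0.05 without sham replicate 1), Glrx3 by 0.11 ± 0.06 and the methionine sulfoxide reductase gene Msrb3 by -0.04 ± 0.02, the 1 other gene of the list without overlap.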

How the data were processed

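Total RNA of 5 mouse hearts (300 ng each, per the labels' protocols) was hybridised to Affymetrix whole-transcript arrays. The deposited log2 values were made with RMA, per the submitters' processing notes. No source used here states its version, the probe library or the build. RMA equalises value distributions between arrays, so global shifts are not visible. Array medians lay between 3.92 and 3.95. Of 41345 probes, 23521 had 1 gene symbol in the platform annotation, 1814 several (not used to name genes) and 16010 were not listed. Of the first, 23328 matched a RefSeq gene table (GRCm38.p6) by Entrez identifier and 0 symbols changed. Genes with a mean below the 40th percentile of probes (3.42) were left out. Differences were fitted across 15294 genes by lmFit and eBayes of limma 3.58.1 (R 4.3.3) without covariates, tested two-sided and adjusted after Benjamini and Hochberg at a threshold of 0.05. Folds are powers of 2 of log2 differences. Permutation tests used the absolute mean difference over all 10 divisions, so 0.1 is the smallest p. The members, their division into inducible and constitutive genes, the further lists and the tests were chosen with earlier results of these data known. The rule for named genes covers all members, with values per heart for the regulators, for members whose groups do not overlap and for those differing by 0.2 or more, and the 4 genes of smallest p of each further list. Alternatives covered the filter, normalization, probes, variance model, array weights, ties, a replicate block and each array left out.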

Additional observations from a re-analysis of the deposited data

How the results depend on the processing

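No call depended on the level filter, a second quantile normalization, centring on medians, averaging of probes, a trend or robust variance, array weights, a restriction to genes without ties, or leaving out any antagonist array: limma called 0 genes and 0 members in each. Leaving out sham arrays changed this, with 1319 genes and 1 member called without sham replicate 1, and 2058 genes and 4 members without sham replicate 2. A single sham array is then assumed to vary like the antagonist arrays, whose values are often exactly equal. The member without sham replicate 1 was Txn2, and those without sham replicate 2 were Txn2, Srxn1, Prdx3 and Sod1. With each array left out in turn the median difference ran from 0.039 to 0.26 for inducible and from 0.023 to 0.12 for constitutive members, the low ends without sham replicate 1. The log2 difference of Gpx1 (0.01) was -0.0048 after a second quantile normalization, the cause was not tested, and no other member turned sign under an alternative that kept all arrays. With 1 array left out, signs turned for Keap1 (-0.27 to 0.060), Hmox1 (-0.20 to 0.52), Gclm (-0.069 to 0.0088), Srxn1 (-0.0050 to 0.26), Gstm1 (-0.094 to 0.43), Me1 (-0.079 to 0.084), Gpx1 (-0.054 to 0.095), Gpx3 (-0.15 to 0.43) and Gpx4 (-0.17 to 0.26). The labels number replicates in both groups but do not say that numbers pair hearts. Deviations of same-numbered hearts correlated at -0.108 and 0.0271 across genes, which are not independent. A fit with the replicate number as a block called 0 genes and 0 members, with medians of 0.19 for inducible and 0.10 for constitutive members. Number 3 occurs only in the antagonist group, so the block takes up that array. The differences of this fit are those without antagonist replicate 3, and it is no separate check.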
